A study of Mus musculus with 21 samples.

Results

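Calcium entry and NFAT signalling were followed through 10 genes in sorted mouse B cells: the IP3 receptor Itpr2, the calcium sensors Stim1 and Stim2, the channel Orai1, the calcineurin subunit Ppp3ca, its inhibitor Rcan1 and the transcription factors Nfatc1, Nfatc2, Nfatc3 and Nfat5. They were chosen by name, and their rows were taken from a table of 23337 genes counted in 21 bulk RNA libraries. All 10 were found and all 10 passed the filter on low counts in each fit. A further 47 genes of the same pathway, listed by role, were read beside them.

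In B cells, engagement of the antigen receptor activates phospholipase C gamma 2, and the IP3 it makes opens receptors on the endoplasmic reticulum that release stored calcium. The STIM proteins sense the emptied store and open ORAI channels in the plasma membrane, which is called store-operated entry. The raised calcium acts through calmodulin on the phosphatase calcineurin, which removes phosphates from the NFATc factors so that they enter the nucleus. RCAN1 binds and restrains calcineurin and is itself a known target gene of NFAT. NFAT5 shares the DNA-binding domain but not the calcineurin docking region and is best known for the response to osmotic stress. In B cells that meet self antigen without being deleted, called anergic, low sustained calcium signals and nuclear NFAT are textbook features.

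The cells came from Peyer's patches (PP, lymphoid follicles of the small intestine), mesenteric lymph nodes (mLN) and spleen of C57BL/6 mice aged 8 to 12 weeks, and the series is about self-reactive B cells of the gut. In each tissue there were 3 libraries of BCL2 HEL pos B cells (numbers 922, 926 and 950), 3 of HEL pos B cells (a pool, 392 and 399) and 1 pooled library of HEL neg B cells, which makes 9 groups. The labels do not spell out HEL or BCL2, give no promoter, allele or sorting gate, and state only that mice of a group shared a cage. They do not say whether a numbered library is 1 mouse, so p-values measure library-to-library spread only, part of which may be technical. In bulk RNA, fewer cells that express a gene and less RNA of it per cell cannot be told apart.

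Library totals ran from 5475131 to 11340876 counts. The B cell genes Cd79a, Cd79b, Ms4a1, Pax5 and Cd22 had counts in every library, with Cd79a at 3937 CPM (the count scaled to a common library total) or more, and each of these genes was lower in mLN and in PP than in spleen among HEL pos cells. Summed over 13 listed genes, gut epithelium transcripts came to 16.0 to 138 CPM in PP BCL2 HEL pos libraries, 231 to 1045 CPM in PP HEL pos libraries and 1216 CPM in the PP HEL neg pool, and to at most 37.1 CPM outside PP. Summed over 14 genes, T and NK cell transcripts came to 8.11 to 21.6 CPM in BCL2 HEL pos libraries, 19.3 to 87.6 CPM in HEL pos libraries and 44.3 to 99.7 CPM in HEL neg pools, and Cd3d and Cd3e were at 0 in no library. The summed transcripts of 4 Y-linked genes reached 0.869 CPM or less in the 6 libraries numbered 392 and 399 (HEL pos) and 92.3 CPM or more in the other 15. The X-linked transcript Xist stood at 232 to 608 CPM in those 6 and at 79.3 to 387 CPM in the other 15. The 15 libraries, numbered BCL2 HEL pos libraries among them, thus held both Y-linked transcripts and Xist. PP HEL pos libraries 399 and Pool stand apart by their olfactory and vomeronasal receptor transcripts, at 719 and 943 CPM against 86.2 CPM in PP HEL pos library 392. Calls in the comparisons with PP HEL pos cells are given with and without these libraries. Without both, library 392 is the only PP HEL pos library left and its spread is taken from the other groups.

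**Figure D1:**
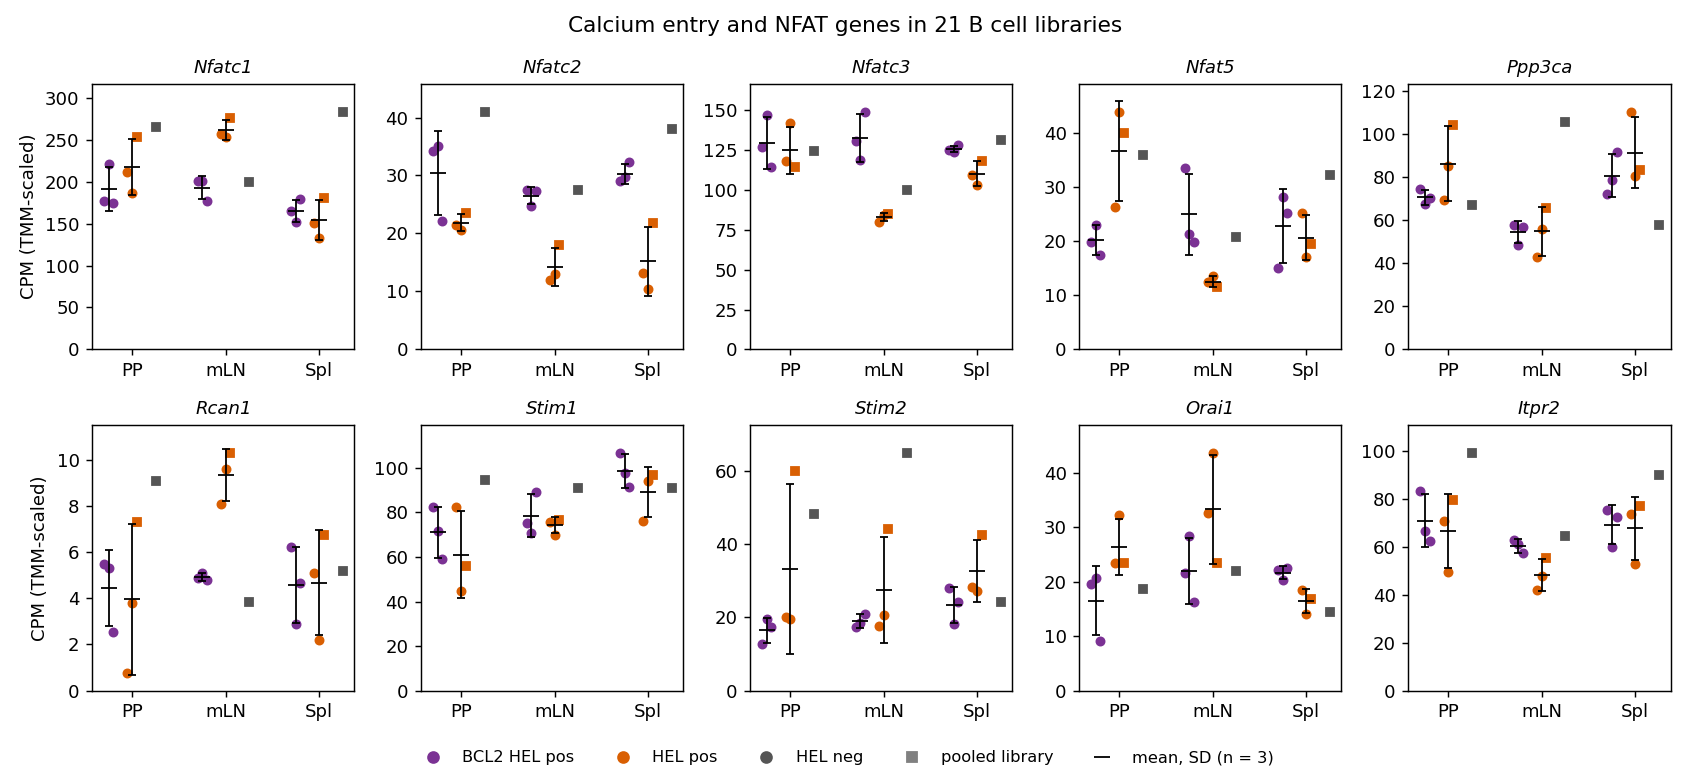
Level of each gene in CPM (vertical axis, TMM-scaled, linear, from 0) in 21 libraries, by tissue on the horizontal axis. Purple points are BCL2 HEL pos, orange points HEL pos and grey points HEL neg libraries, squares are pools, and bars give the mean and SD of 3 libraries. In mLN, Nfatc1 is lower and Nfatc2, Nfatc3 and Nfat5 are higher in BCL2 HEL pos than in HEL pos cells.

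Levels are given in CPM of TMM-scaled library totals. Divided by the gene's exon length, Nfatc1 was the highest of the 10 genes, with a median of 26.7 CPM per kb over the 21 libraries. Nfatc3 followed at 10.1, Orai1 at 9.39, Stim1 at 7.94, Ppp3ca at 7.02, Itpr2 at 4.36, Stim2 at 4.10 and Nfatc2 at 2.35 CPM per kb, with Rcan1 at 1.66 and Nfat5 at 1.16 CPM per kb at the low end. The range over libraries differed between genes. Nfatc3 spanned 1.86-fold and Nfatc1 2.12-fold, whereas Orai1 spanned 4.74-fold and Stim2 5.07-fold. Rcan1 spanned 13.6-fold, on 5 to 82 counts per library, so its ratios are the least precise.

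Differences were called at an adjusted p under 0.05 in the quasi-likelihood test of edgeR, with Benjamini-Hochberg adjustment over all genes. Between PP and spleen HEL pos cells 3 of the 10 genes were called, beside 15.4% of all genes tested, and between mLN and spleen HEL pos cells 4 were called, beside 24.5%. Between PP and mLN HEL pos cells 3 were called, all higher in PP, beside 8.86% of all genes. In BCL2 HEL pos cells the counts were 0 for PP over spleen (7.34% of all genes), 1 for mLN over spleen (10.0%) and 0 for PP over mLN (1.16%). In both comparisons without a call DESeq2 also called 0, and 1 gene had an unadjusted p under 0.05 in edgeR. Between BCL2 HEL pos and HEL pos cells 1 of the 10 was called in spleen (9.37% of all genes), 4 in mLN (11.7%) and 1 in PP (10.1%). Against the HEL neg pools, with tissue as a covariate, 2 were called in BCL2 HEL pos cells (14.7%) and 1 in HEL pos cells (8.68%). The median absolute log2 fold change was 0.58 over the 10 genes and 0.30 over all genes for BCL2 HEL pos over HEL pos cells in mLN. In HEL pos cells it was 0.59 and 0.38 for mLN over spleen, 0.52 and 0.29 for PP over mLN and 0.37 and 0.32 for PP over spleen. Against the HEL neg pools it was 0.38 and 0.28 for HEL pos and 0.31 and 0.23 for BCL2 HEL pos cells. It was below that of all genes for BCL2 HEL pos over HEL pos cells in spleen (0.16 and 0.29) and in PP (0.25 and 0.30), and between the tissues of BCL2 HEL pos cells (0.20 to 0.21, against 0.20 to 0.27 over all genes). Comparisons that share a group share its libraries and are not independent.

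Release from the store was represented by Itpr2, an IP3 receptor (chromosome 6 from 146108299 to 146502223). Over the 3 tissues it ran from 57.4 to 83.6 CPM in BCL2 HEL pos libraries. Among HEL pos cells its level was 79.8, 70.9 and 49.8 CPM in PP libraries Pool, 392 and 399, 55.4, 41.9 and 47.7 CPM in the same mLN libraries, and 77.1, 73.9 and 52.8 CPM in the spleen libraries. The HEL neg pools had 99.2 CPM in PP, 64.5 CPM in mLN and 90.3 CPM in spleen, each above all other libraries of its tissue. Library 399 was the lowest HEL pos library in PP and in spleen, so that the mLN values overlapped both. The fit reported called Itpr2 in no comparison. The nearest was mLN over spleen in HEL pos cells, at -0.48 ± 0.18 on the log2 scale (SE, adjusted p = 0.0521 in edgeR), which DESeq2 called at -0.49 (adjusted p = 0.0386). In edgeR it was called with DESeq2 size factors, with no low-count filter and with only the groups compared, at -0.51 to -0.49. With the library number as a block it was called at -0.47, and without mLN library Pool or spleen library 399 at -0.60 and -0.63. The other alternatives did not call it. PP over mLN in HEL pos cells, at 0.46 ± 0.18, was called only with the block, at 0.44, and without PP library 399, at 0.65. HEL pos cells stood at -0.46 ± 0.15 against HEL neg pools (adjusted p = 0.074 in edgeR) and BCL2 HEL pos cells at -0.34 ± 0.12 (adjusted p = 0.0722 in edgeR). DESeq2 called both, at -0.48 (adjusted p = 0.0411) and -0.36 (adjusted p = 0.045), and without the HEL pos pools edgeR called the difference of HEL pos cells, at -0.60 (adjusted p = 0.0325). Between BCL2 HEL pos and HEL pos cells Itpr2 stood at 0.07 ± 0.18 in PP, 0.31 ± 0.18 in mLN and 0.04 ± 0.18 in spleen.

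Stim1, the main sensor of store depletion (chromosome 7 from 102267806 to 102437319), was lower in PP than in spleen. PP HEL pos libraries Pool, 392 and 399 had 55.9, 82.5 and 44.9 CPM, against 97.0, 76.3 and 94.2 CPM in spleen HEL pos libraries. PP BCL2 HEL pos libraries 922, 926 and 950 had 82.4, 71.7 and 59.3 CPM, against 106.5, 97.7 and 91.5 CPM in spleen. PP library 392 lay above spleen library 392, so the HEL pos groups overlapped, while the BCL2 HEL pos groups did not. The log2 fold change was -0.54 ± 0.18 in HEL pos cells (adjusted p = 0.041 in edgeR) and -0.50 ± 0.18 in BCL2 HEL pos cells (adjusted p = 0.0943 in edgeR, 95% interval -0.84 to -0.15). The interaction, BCL2 HEL pos minus HEL pos in the PP over spleen contrast, was 0.05 ± 0.25 (95% interval -0.44 to 0.53). The HEL pos call was lost when any of the spleen libraries Pool and 399 or the PP libraries Pool and 399 was left out, at -0.51 to -0.37. It was also lost without the HEL pos pools of all tissues, at -0.40. Without both PP libraries 399 and Pool, which hold the most receptor transcripts, the value was -0.13 (adjusted p = 0.764 in edgeR). In mLN, Stim1 was at 70.8 to 89.2 CPM in BCL2 HEL pos libraries and 70.0 to 76.5 CPM in HEL pos libraries, and the HEL neg pools of the 3 tissues lay between 90.8 and 94.7 CPM.

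Stim2, the second sensor, which responds to smaller losses of stored calcium (chromosome 5 from 53998499 to 54121057), was higher in the HEL pos pools than in the numbered HEL pos libraries. The 9 BCL2 HEL pos libraries, none of them a pool, had 12.8 to 28.0 CPM. The HEL pos pools had 59.9 CPM in PP, 44.1 CPM in mLN and 42.5 CPM in spleen. The numbered HEL pos libraries had 20.1 and 19.7 CPM in PP, 17.7 and 20.8 CPM in mLN and 28.4 and 27.2 CPM in spleen. The pool exceeded both numbered libraries in all 3 tissues. In PP all BCL2 HEL pos libraries were below all HEL pos libraries, at -1.03 ± 0.37 on the log2 scale (adjusted p = 0.0805 in edgeR), which was called by DESeq2, at -1.05 (adjusted p = 0.042), and by edgeR with no low-count filter, at -0.99 (adjusted p = 0.000876). PP BCL2 HEL pos libraries 922, 926 and 950 had 12.8, 19.5 and 17.3 CPM, the highest just below the numbered HEL pos libraries. The PP HEL pos pool lay well above both. In fits that kept the pool, edgeR called the difference without PP HEL pos library 392, at -1.29 (adjusted p = 0.0307 in edgeR). Without PP HEL pos library 399 it was called at -1.30 (adjusted p = 0.0484 in edgeR). Without the HEL pos pools it was not called, and the part of pooling in this difference was not tested. In mLN the difference was -0.55 ± 0.37 and in spleen -0.47 ± 0.37, neither called. The HEL neg pools had 48.3 CPM in PP, 64.9 CPM in mLN and 24.2 CPM in spleen. BCL2 HEL pos cells were lower than HEL neg pools by -1.23 ± 0.24 on the log2 scale (adjusted p = 0.00214 in edgeR). The call was lost at -0.90 (adjusted p = 0.0523 in edgeR) without the mLN HEL neg pool. In spleen the BCL2 HEL pos libraries, at 18.3 to 28.0 CPM, lay on both sides of the pool. In that contrast 8 of 12 tested T and NK cell markers and 7 of 8 gut epithelium markers were called lower, and their part was not tested. Against HEL neg pools the HEL pos cells stood at -0.52 ± 0.37 (adjusted p = 0.423 in edgeR), and at -1.04 (adjusted p = 0.038 in edgeR) once the HEL pos pools were left out. Pooling and cell kind cannot be told apart in the contrast of BCL2 HEL pos with HEL neg cells.

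Orai1, which forms the pore of the store-operated channel (chromosome 5 from 123015074 to 123030456), was higher in mLN than in spleen among HEL pos cells. Its level was 23.5, 32.7 and 43.6 CPM in mLN HEL pos libraries Pool, 392 and 399, against 16.8, 18.5 and 14.2 CPM in spleen. All mLN libraries were above all spleen libraries, and the log2 fold change was 1.02 ± 0.28 (adjusted p = 0.00945 in edgeR). Without the mLN library 399 the value was 0.77 (adjusted p = 0.083 in edgeR). PP HEL pos libraries had 23.5, 23.4 and 32.3 CPM, also above all spleen libraries, with a log2 fold change of 0.68 ± 0.28 that was not called (adjusted p = 0.109 in edgeR). In BCL2 HEL pos cells the tissues overlapped: the libraries had 19.6, 20.7 and 9.20 CPM in PP, 21.5, 28.3 and 16.3 CPM in mLN and 22.2, 20.3 and 22.6 CPM in spleen. There the log2 fold change was -0.43 ± 0.28 for PP over spleen (95% interval -0.98 to 0.12) and 0.01 ± 0.28 for mLN over spleen (-0.53 to 0.55). The interactions were -1.11 ± 0.40 for PP over spleen and -1.01 ± 0.39 for mLN over spleen, with adjusted p of 0.40 and 0.382 in edgeR. The mLN increase of Orai1 in HEL pos cells was thus not shown to differ between the cell kinds.

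Ppp3ca encodes a catalytic subunit of calcineurin (chromosome 3 from 136670124 to 136937727) and was lower in mLN than in spleen in both cell kinds. In HEL pos cells the libraries Pool, 392 and 399 had 65.8, 43.1 and 55.9 CPM in mLN, against 83.0, 110.1 and 80.4 CPM in spleen. In BCL2 HEL pos cells the libraries 922, 926 and 950 had 57.7, 48.7 and 56.8 CPM in mLN, against 71.9, 78.6 and 91.4 CPM in spleen. No mLN library reached a spleen library of its kind. The log2 fold change was -0.72 ± 0.17 in HEL pos cells (adjusted p = 0.0032 in edgeR) and -0.59 ± 0.17 in BCL2 HEL pos cells (adjusted p = 0.0307 in edgeR). In HEL pos cells the call held under all 12 alternatives run, at -0.93 to -0.59, whereas in BCL2 HEL pos cells it was lost in 5 of 6 fits that left out 1 library (all but spleen 922), at -0.63 to -0.48. Between BCL2 HEL pos and HEL pos cells Ppp3ca stood at -0.30 ± 0.17 in PP, -0.03 ± 0.17 in mLN and -0.16 ± 0.17 in spleen, none called. PP HEL pos libraries had 104.1, 69.4 and 85.0 CPM, above the mLN libraries by 0.65 ± 0.17 (adjusted p = 0.0222 in edgeR). That PP over mLN call was lost without PP library Pool, mLN library 392 or mLN library 399, at 0.48 to 0.67, and without PP libraries 399 and Pool the value was 0.32. It was also lost without the HEL pos pools of all tissues, at 0.65, and with only the groups compared, at 0.68. The HEL neg pools ran the other way in mLN, with 66.9 CPM in PP, 105.5 CPM in mLN and 57.6 CPM in spleen, 1 library each.

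**Figure D2:**
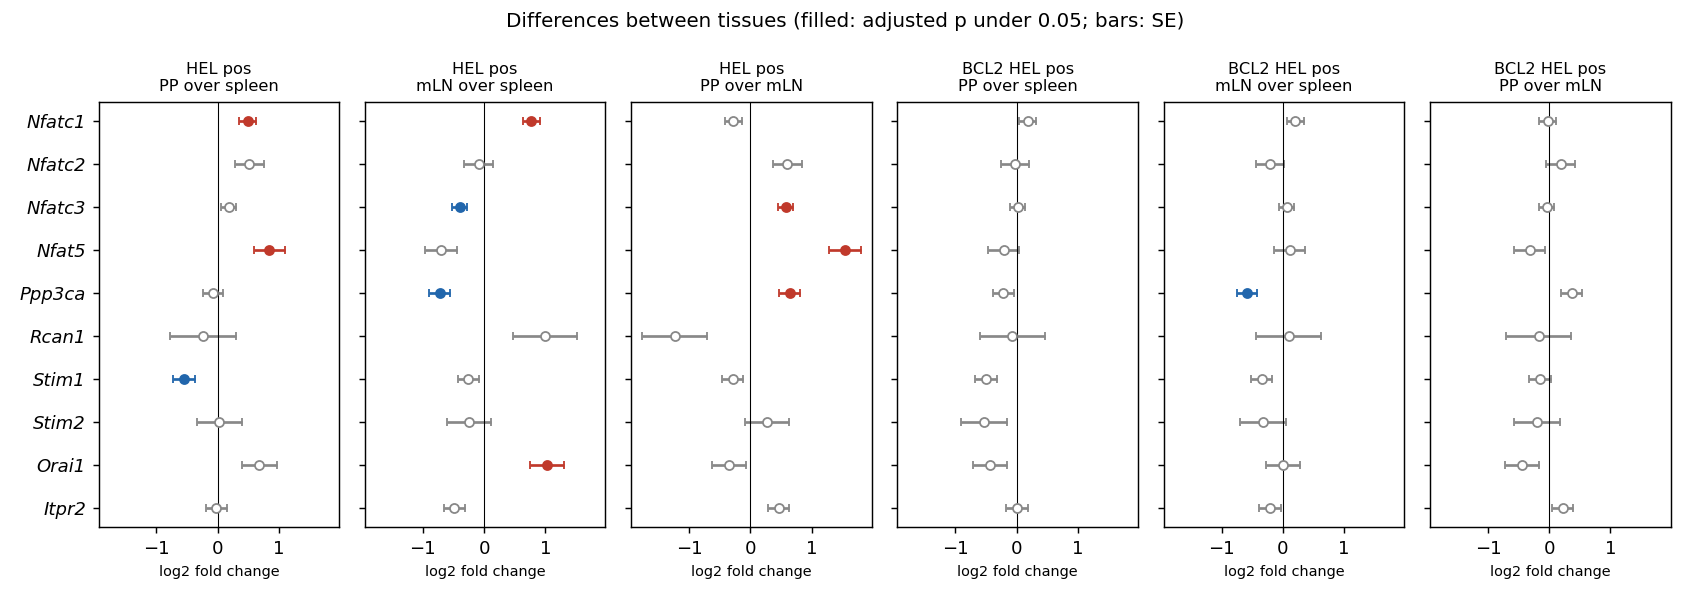
Log2 fold change between tissues (horizontal axis) for each gene, in HEL pos cells (left 3 panels) and BCL2 HEL pos cells (right 3 panels), with bars of 1 SE. Filled points have an adjusted p under 0.05, red when higher and blue when lower in the tissue named at the top. The 3 panels of HEL pos cells hold 10 filled points, those of BCL2 HEL pos cells 1.

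Rcan1, the calcineurin inhibitor (chromosome 16 from 92391953 to 92470867), was the least counted of the 10 genes. RefSeq gives it 2 transcription starts on the minus strand, and the window of 250 bases before to 50 bases after each start is shown to set side by side the letters at both starts (build GRCm38.p6, 5′ to 3′ on the gene's strand). Capitals mark the NFAT core GGAAA on either strand and the AP-1 motif TGANTCA, and no motif matches overlap.
Rcan1 upstream start, chr16:92466120-92466419: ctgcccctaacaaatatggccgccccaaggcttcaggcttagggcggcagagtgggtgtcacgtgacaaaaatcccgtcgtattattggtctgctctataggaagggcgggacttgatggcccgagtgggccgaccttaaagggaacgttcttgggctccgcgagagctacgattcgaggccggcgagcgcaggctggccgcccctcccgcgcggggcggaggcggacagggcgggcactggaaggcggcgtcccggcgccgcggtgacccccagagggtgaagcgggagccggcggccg
Rcan1 inner start, chr16:92400029-92400328: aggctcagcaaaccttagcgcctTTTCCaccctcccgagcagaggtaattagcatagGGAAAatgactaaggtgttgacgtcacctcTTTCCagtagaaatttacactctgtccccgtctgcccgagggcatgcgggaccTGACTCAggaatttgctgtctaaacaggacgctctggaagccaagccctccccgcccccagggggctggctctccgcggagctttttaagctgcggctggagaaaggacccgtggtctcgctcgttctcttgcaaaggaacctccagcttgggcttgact
The inner window holds 3 matches of GGAAA and 1 of TGANTCA, the upstream window 0 of either. Of 32851 such windows in the mouse table, 61.3% hold at least 1 match of GGAAA, 9.42% hold at least 3 and 7.81% hold TGANTCA. A match is a description of the letters, and the counts are per gene, so they do not say which start was used.

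Among BCL2 HEL pos libraries Rcan1 stood at 2.54 to 5.50 CPM in PP, 4.77 to 5.11 CPM in mLN and 2.89 to 6.20 CPM in spleen. It stood at 7.29, 0.756 and 3.80 CPM in PP HEL pos libraries Pool, 392 and 399, 10.3, 8.08 and 9.60 CPM in mLN and 6.73, 5.09 and 2.21 CPM in spleen. Among HEL pos cells all mLN libraries were above all PP and all spleen libraries, and the PP libraries differed most among themselves, with 5 counts in library 392. The log2 fold change of mLN over spleen HEL pos cells was 0.99 ± 0.52 (adjusted p = 0.183 in edgeR, 95% interval -0.03 to 2.01), and that of BCL2 HEL pos over HEL pos cells in mLN was -0.93 ± 0.52 (adjusted p = 0.276 in edgeR). Neither was called in the fit reported; in a fit of only the groups compared the mLN difference between cell kinds was called, at -0.93 (adjusted p = 0.0278 in edgeR). PP over mLN in HEL pos cells was -1.23 ± 0.53 (adjusted p = 0.151 in edgeR). Without PP library Pool it was -2.05 (adjusted p = 0.0382 in edgeR), and without PP libraries 399 and Pool it was -3.61 (adjusted p = 0.020 in edgeR), which sets the 5 counts of PP library 392 alone against mLN.

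Nfatc1, the factor that also makes a short inducible isoform in activated lymphocytes (chromosome 18 from 80606205 to 80713071), was higher in the gut tissues than in spleen among HEL pos cells. Its level was 254, 212 and 187 CPM in PP HEL pos libraries Pool, 392 and 399, 275, 257 and 253 CPM in mLN and 180.1, 150.5 and 133 CPM in spleen. Each PP and each mLN library exceeded all spleen libraries. The log2 fold change was 0.77 ± 0.14 for mLN over spleen (adjusted p = 0.000277 in edgeR), called in all 12 alternatives at 0.68 to 0.88, and 0.49 ± 0.14 for PP over spleen (adjusted p = 0.0181 in edgeR). The PP call was lost without PP library Pool, spleen library 392 or spleen library 399, at 0.34 to 0.45, and without PP libraries 399 and Pool it was 0.44 (adjusted p = 0.172 in edgeR). The sum of T and NK cell transcripts moved with the mLN difference in part: it was 87.6, 75.1 and 30.1 CPM in mLN HEL pos libraries Pool, 392 and 399, against 19.3, 26.6 and 43.2 CPM in spleen, with 4 of 12 tested markers higher in mLN. The mean sum was 64.3 CPM in mLN and 29.7 CPM in spleen, and the libraries of the tissues overlapped. The part of these transcripts in the Nfatc1 difference was not tested.

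BCL2 HEL pos cells had less Nfatc1 than HEL pos cells in mLN. The libraries 922, 926 and 950 had 201, 200.4 and 177 CPM, against 275, 257 and 253 CPM in the HEL pos libraries, without overlap and with a log2 fold change of -0.46 ± 0.14 (adjusted p = 0.034 in edgeR). Leaving out any of the 6 libraries ended this call, at -0.49 to -0.38. T and NK cell transcripts moved with it, with 7 of 12 tested markers lower and a sum of 9.70 to 13.3 CPM in BCL2 HEL pos libraries, against 30.1 to 87.6 CPM in HEL pos libraries, and their part was not tested. In spleen the difference was 0.11 ± 0.14 and in PP -0.20 ± 0.14, and across tissues BCL2 HEL pos libraries kept within 153 to 221 CPM. The interaction for mLN over spleen was -0.57 ± 0.20 (adjusted p = 0.293 in edgeR). The HEL neg pools had 265 CPM in PP, 199 CPM in mLN and 283 CPM in spleen, so in spleen the pool exceeded all 6 other libraries, and in mLN it lay below all 3 HEL pos libraries. BCL2 HEL pos cells were lower than HEL neg pools by -0.46 ± 0.13 (adjusted p = 0.0206 in edgeR). The call was lost without the spleen pool, at -0.29, and without the PP pool, at -0.43. In mLN the BCL2 HEL pos libraries, at 177 to 201 CPM, lay on both sides of the pool. In that contrast 8 of 12 tested T and NK cell markers were called lower. So were 7 of 8 gut epithelium and 4 of 10 macrophage and dendritic cell markers, beside 14.7% of all genes called, and their part was not tested. Between the HEL pos and HEL neg pools the ratio was 0.955 in PP, 1.38 in mLN and 0.636 in spleen, a difference of direction between tissues that rests on 1 library each and was not tested.

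Nfatc2, the NFAT factor present before activation in lymphocytes (chromosome 2 from 168476410 to 168601657), is described by cell kind and then by tissue. Its RefSeq promoter window at the outer start is shown because it holds 3 matches of GGAAA, in capitals, as the inner Rcan1 window does (build GRCm38.p6, minus strand, 5′ to 3′).
Nfatc2 outer start, chr2:168601608-168601907: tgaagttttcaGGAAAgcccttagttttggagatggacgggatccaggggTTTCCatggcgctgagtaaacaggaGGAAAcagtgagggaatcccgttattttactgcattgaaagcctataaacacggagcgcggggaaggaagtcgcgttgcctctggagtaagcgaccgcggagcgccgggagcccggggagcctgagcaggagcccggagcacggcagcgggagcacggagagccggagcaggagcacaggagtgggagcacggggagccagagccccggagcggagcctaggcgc
Windows were found for 8 of the 10 genes, 11 in all. The windows of Stim1, Stim2, Orai1 and Itpr2 held 0 matches of GGAAA, and that of Nfat5 held 2. The inner Nfatc2 window, not shown, held 1, and the Nfatc3 windows held 1 and 0. No window was found for Nfatc1 and Ppp3ca.

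Nfatc2 was higher in BCL2 HEL pos than in HEL pos cells of mLN and spleen, and lower in HEL pos cells than in HEL neg pools. Its level in BCL2 HEL pos libraries 922, 926 and 950 was 34.1, 35.0 and 22.2 CPM in PP, 27.4, 24.8 and 27.4 CPM in mLN and 29.0, 29.7 and 32.3 CPM in spleen. In HEL pos libraries Pool, 392 and 399 it was 23.5, 21.5 and 20.6 CPM in PP, 18.0, 11.9 and 12.9 CPM in mLN and 21.8, 13.3 and 10.5 CPM in spleen. The HEL neg pools had 40.9 CPM in PP, 27.6 CPM in mLN and 37.9 CPM in spleen. All 9 HEL pos libraries were below the HEL neg pool of their tissue, and in mLN and spleen all were below the BCL2 HEL pos libraries, while in PP those groups overlapped.

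HEL pos cells had -1.06 ± 0.21 log2 units of Nfatc2 relative to HEL neg pools (adjusted p = 0.00665 in edgeR, 9 and 3 libraries). The value was -1.12 (adjusted p = 0.052 in edgeR) without the PP HEL neg pool and called in the other 16 alternatives. Pool against pool, the ratio of HEL pos to HEL neg was 0.574 in PP, 0.654 in mLN and 0.574 in spleen. BCL2 HEL pos cells stood at -0.29 ± 0.15 against the same pools (adjusted p = 0.224 in edgeR, 95% interval -0.58 to 0.00). Against HEL pos cells they were higher by 1.00 ± 0.24 in spleen (adjusted p = 0.0104 in edgeR), by 0.88 ± 0.24 in mLN (adjusted p = 0.020 in edgeR) and by 0.46 ± 0.24 in PP (adjusted p = 0.219 in edgeR). The spleen call was lost without HEL pos library 392, HEL pos library 399 or BCL2 HEL pos library 950, at 0.80 to 0.93. The mLN call was lost without HEL pos library 392 or 399 or BCL2 HEL pos library 922 or 950, at 0.77 to 0.87. Without the HEL pos pools both calls stood, at 1.34 in spleen and 1.07 in mLN. Against the HEL neg pools, T and NK cell transcripts moved with Nfatc2 in PP and spleen: their sum was 34.3 to 47.3 CPM in PP HEL pos libraries, against 96.6 CPM in the PP pool, and 19.3 to 43.2 CPM in spleen HEL pos libraries, against 99.7 CPM in the spleen pool. In mLN it was 30.1 to 87.6 CPM, against 44.3 CPM in the pool, and the part of these transcripts was not tested. Between BCL2 HEL pos and HEL pos cells they ran opposite to Nfatc2, since their sum was lower in BCL2 HEL pos than in HEL pos libraries of mLN, with 7 of 12 tested markers called lower. Y-linked transcripts set the numbered HEL pos libraries apart from the BCL2 HEL pos libraries and the HEL pos pools. In HEL pos cells of mLN, Nfatc2 was 11.9 and 12.9 CPM in the numbered libraries and 18.0 CPM in the pool. In spleen it was 13.3 and 10.5 CPM, against 21.8 CPM. BCL2 HEL pos libraries had 24.8 to 27.4 CPM in mLN and 29.0 to 32.3 CPM in spleen. This split by Y-linked transcripts applies to every gene compared between these cell kinds, and its part was not tested. Between tissues, Nfatc2 in HEL pos cells stood at 0.61 ± 0.24 for PP over mLN, where all PP libraries were higher (adjusted p = 0.118 in edgeR), at 0.52 ± 0.24 for PP over spleen (adjusted p = 0.161 in edgeR) and at -0.09 ± 0.24 for mLN over spleen. Without the HEL pos pools PP over spleen was called, at 0.84 (adjusted p = 0.0354 in edgeR). In BCL2 HEL pos cells these differences were 0.19, -0.02 and -0.21, each ± 0.23.

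**Figure D3:**
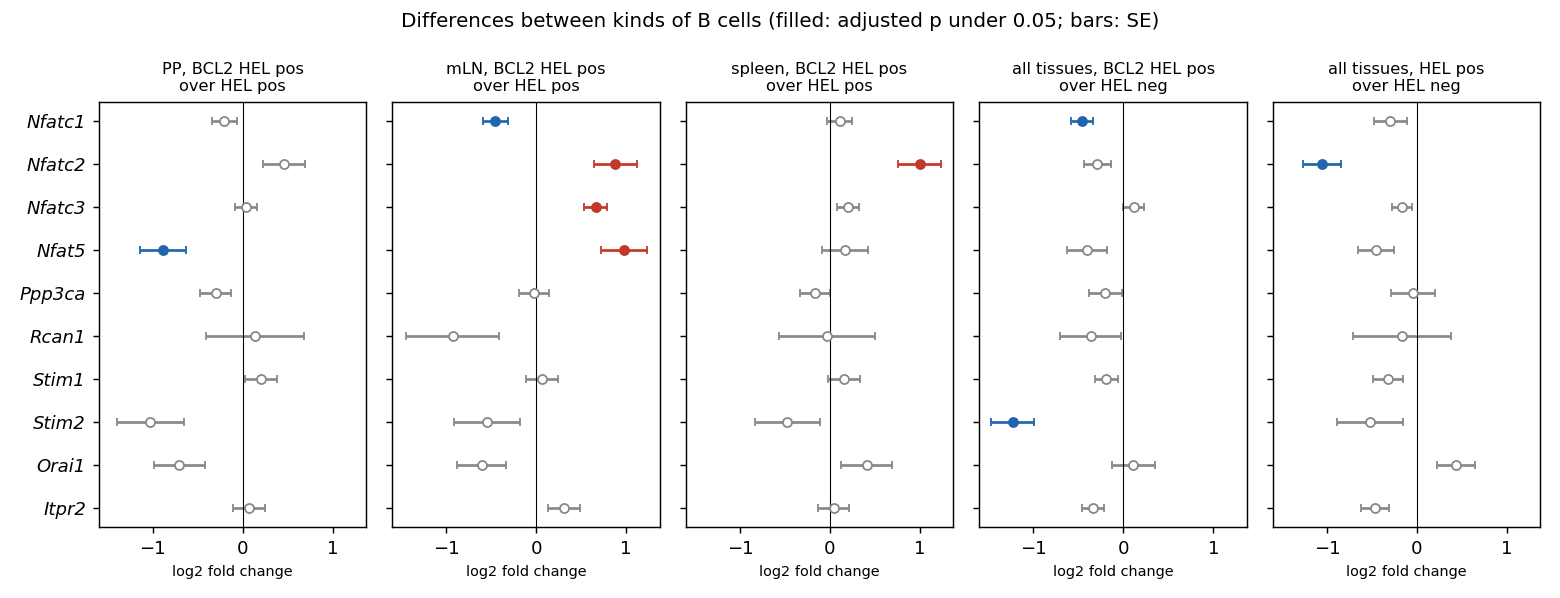
Log2 fold change between kinds of B cells (horizontal axis) for each gene, with bars of 1 SE. The 3 left panels set BCL2 HEL pos over HEL pos cells in PP, mLN and spleen, and the 2 right panels set each over the HEL neg pools with tissue as a covariate. Filled points have an adjusted p under 0.05, and Nfatc2 is filled in 3 of the 5 panels.

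Nfatc3, also expressed in resting lymphocytes (chromosome 8 from 106058840 to 106130537), was lower in mLN HEL pos cells than in any other group. BCL2 HEL pos libraries 922, 926 and 950 of mLN had 131, 119 and 149 CPM, against 84.8, 79.8 and 84.4 CPM in mLN HEL pos libraries Pool, 392 and 399. PP HEL pos libraries had 114, 118 and 142 CPM and spleen HEL pos libraries 118, 109 and 103 CPM. The mLN HEL pos values were below those of all other libraries, including the mLN HEL neg pool at 99.7 CPM. Within mLN, BCL2 HEL pos cells were higher than HEL pos cells by 0.66 ± 0.12 (adjusted p = 0.00154 in edgeR), called in all 11 alternatives at 0.59 to 0.74. PP HEL pos cells exceeded mLN HEL pos cells by 0.58 ± 0.13 (adjusted p = 0.00703 in edgeR), which was 0.50 (adjusted p = 0.139 in edgeR) without PP libraries 399 and Pool. The mLN HEL pos cells stood at -0.40 ± 0.12 against spleen (adjusted p = 0.0229 in edgeR). This call was lost without spleen library Pool, mLN library 392 or mLN library 399, at -0.43 to -0.36. It was also lost without the HEL pos pools, at -0.35, and in the fit with no low-count filter, at -0.41. In BCL2 HEL pos cells mLN over spleen was 0.06 ± 0.12 (95% interval -0.18 to 0.30), and the interaction of 0.46 ± 0.18 was not called (adjusted p = 0.376 in edgeR). Exons of Nfatc3 overlap Esrp2, on the other strand, by 219 bases. Esrp2 had at most 13 counts, or 2.25 CPM, in a library, and whether counting used the strand is not given in the sources used here.

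Nfat5, the osmotic stress factor (chromosome 8 from 107293470 to 107379517), had its highest and its lowest group among HEL pos cells. PP HEL pos libraries Pool, 392 and 399 had 40.1, 26.3 and 43.9 CPM, mLN libraries 11.5, 12.5 and 13.6 CPM and spleen libraries 19.5, 25.3 and 17.1 CPM. These 3 groups did not overlap, with PP above spleen and spleen above mLN. The log2 fold change was 1.54 ± 0.26 for PP over mLN (adjusted p = 0.00123 in edgeR), 0.84 ± 0.25 for PP over spleen (adjusted p = 0.0287 in edgeR) and -0.70 ± 0.26 for mLN over spleen (adjusted p = 0.054 in edgeR). DESeq2 called the mLN over spleen difference as well, at -0.72 (adjusted p = 0.0382).

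The PP increase of Nfat5 over spleen was smaller without the 2 PP HEL pos libraries with most receptor transcripts. PP library 392 had 26.3 CPM, against 25.3 CPM in spleen library 392, and 86.2 CPM of receptor transcripts. Without PP libraries 399 and Pool the difference was 0.33 for PP over spleen and 1.05 for PP over mLN. That fit holds library 392 alone for PP HEL pos cells. The PP over spleen call was lost at 0.69 to 0.78 without PP library Pool or 399 or spleen library Pool or 399. It was also lost without the HEL pos pools of all tissues, at 0.75. The PP HEL neg pool, with 535 CPM of receptor transcripts, had 36.0 CPM of Nfat5. Spleen HEL pos libraries Pool, 392 and 399 had 254, 104 and 466 CPM of receptor transcripts and 19.5, 25.3 and 17.1 CPM of Nfat5. The part of these transcripts, and of gut epithelium transcripts, in the Nfat5 values was not tested.

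**Figure D4:**
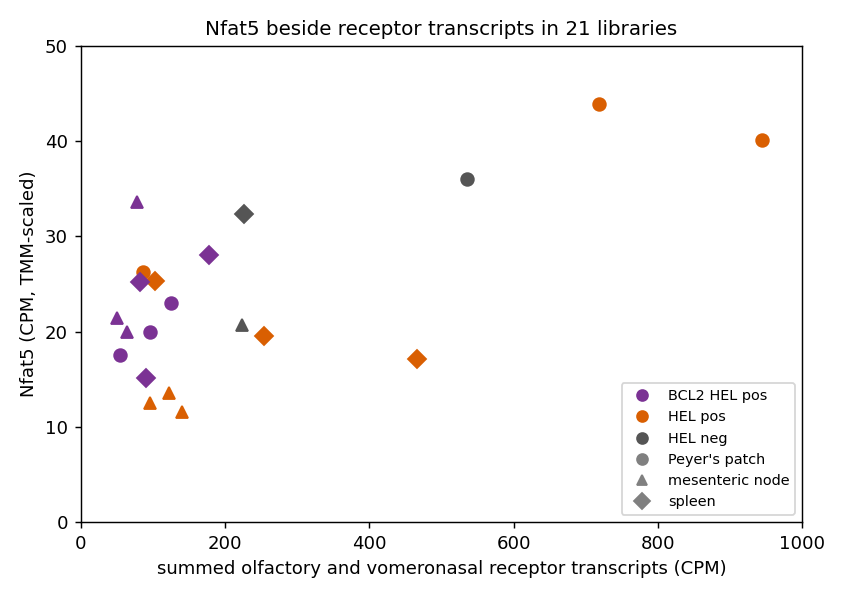
Nfat5 level in CPM (vertical axis, TMM-scaled) against the summed olfactory and vomeronasal receptor transcripts in CPM of library totals (horizontal axis) in 21 libraries. Colours give the kind of B cell and shapes the tissue. The 3 PP libraries above 500 CPM of receptor transcripts have 36.0 to 43.9 CPM of Nfat5, and the spleen HEL pos library at 466 CPM has 17.1 CPM.

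Nfat5 also differed between the cell kinds, in opposite directions in mLN and PP. BCL2 HEL pos libraries 922, 926 and 950 had 33.6, 21.4 and 19.9 CPM in mLN, above all 3 HEL pos libraries there, and 20.0, 23.0 and 17.5 CPM in PP, below all 3 HEL pos libraries there. In spleen they had 15.1, 28.1 and 25.2 CPM and overlapped with HEL pos cells. The log2 fold change was 0.98 ± 0.26 in mLN (adjusted p = 0.0176 in edgeR), -0.88 ± 0.25 in PP (adjusted p = 0.0301 in edgeR) and 0.16 ± 0.25 in spleen. The mLN call was lost without HEL pos library Pool or 392 or BCL2 HEL pos library 922, at 0.71 to 0.98, and without the HEL pos pools of all tissues, at 0.92. The PP call was lost without HEL pos library Pool or 399 or BCL2 HEL pos library 922 or 950, at -0.87 to -0.74, and was -0.38 without PP HEL pos libraries 399 and Pool.

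The difference between the cell kinds was tested across tissues as an interaction. For PP over spleen and for mLN over spleen edgeR called 0 of the 10 genes, beside 0.00876% and 0.385% of all genes, DESeq2 called 0 as well, and 2 and 4 genes had an unadjusted p under 0.05 in edgeR. For PP over mLN, a contrast added after the values were seen, edgeR called 0, beside 0.00876% of all genes, 2 genes had an unadjusted p under 0.05 and DESeq2 called 1, Nfat5. Nfat5 stood at -1.86 ± 0.36 in that contrast (unadjusted p = 4.56e-05, adjusted p = 0.14 in edgeR), and at -1.87 in DESeq2 (adjusted p = 0.00533). It was -1.35 (adjusted p = 0.298 in edgeR) without PP HEL pos libraries 399 and Pool. Nfatc3 followed at -0.62 ± 0.18 (adjusted p = 0.303 in edgeR).

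Of the 47 other pathway genes, 41 passed the filter in the fits. Between mLN and spleen HEL pos cells 4 were higher and 9 lower, with 24.5% of all genes called, and between PP and spleen HEL pos cells 4 were higher and 4 lower, with 15.4% of all genes called. Kcnn4, a calcium-activated potassium channel that sustains the drive for calcium entry, averaged 138 CPM in mLN and 37.3 CPM in spleen, a log2 fold change of 1.90 ± 0.18 (adjusted p = 1.33e-07 in edgeR). It was also higher in PP HEL pos than in spleen HEL pos cells by 0.95 ± 0.17 and, within BCL2 HEL pos cells, higher in mLN than in spleen by 0.98 ± 0.17. Tmem66 (now Saraf), which turns store-operated entry down, averaged 96.3 CPM in mLN HEL pos libraries, against 31.1 CPM in those of spleen, at 1.64 ± 0.19. The endoplasmic reticulum calcium pump Atp2a3 fell to 351 CPM in mLN, against 869 CPM in spleen, by -1.29 ± 0.16, and to 392 CPM in PP, by -1.15 ± 0.15. Its relative Atp2a2 was higher in PP than in spleen, by 1.01 ± 0.20, and also in mLN than in spleen, by 0.94 ± 0.20. Ms4a1, which encodes the B cell marker CD20, tied to calcium entry, averaged 1568 CPM in mLN and 1916 CPM in PP, against 4480 CPM in spleen. All 6 genes listed as B cell markers, Ms4a1 among them, were called lower in mLN and in PP than in spleen. Without PP libraries 399 and Pool, 3 pathway genes were higher and 2 lower in PP than in spleen: Kcnn4 was still called at 1.04, Atp2a3 at -0.87 and Ms4a1 at -1.01, while Atp2a2 stood at 0.55 (adjusted p = 0.237 in edgeR).

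By role, beside 24.5% of all genes, the calls between mLN and spleen HEL pos cells were 0 higher and 3 lower of 6 genes of IP3 production and receptors, 0 higher and 3 lower of 6 calcineurin and calmodulin genes, and 0 of 4 calcineurin inhibitors. Store-operated entry had 1 of 5 higher, pumps and mitochondrial uptake 2 higher and 1 lower of 7, other channels 1 higher and 1 lower of 7, and NFAT partners and kinases 1 of 6 lower. The lower genes of IP3 signalling were Plcg2 and the receptors Itpr1 and Itpr3. Between PP and mLN HEL pos cells, Itpr1 was higher by 0.97 ± 0.16 and Itpr3 by 0.92 ± 0.17, while Kcnn4 stood at -0.96 ± 0.17 and Tmem66 at -0.75 ± 0.19, and in all 2 were higher and 3 lower, with 8.86% of all genes called. Without PP libraries 399 and Pool 2 were called, both higher: Itpr1 stood at 0.94 and Itpr3 at 1.20, both called, Kcnn4 at -0.85 (adjusted p = 0.0906 in edgeR) and Tmem66 at -0.56 (adjusted p = 0.308 in edgeR). The median log2 fold change of the 41 genes between mLN and spleen HEL pos cells was -0.15, and over all genes -0.01.

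Within BCL2 HEL pos cells the pathway calls were 1 higher and 1 lower for PP over spleen (7.34% of all genes called), 1 and 3 for mLN over spleen (10.0%), and 0 and 1 for PP over mLN (1.16%). Slc24a6 (now Slc8b1), a mitochondrial sodium-calcium exchanger, was higher in PP than in spleen by 1.01 ± 0.30, and Orai2, a relative of Orai1, was lower by -0.49 ± 0.15. The plasma membrane calcium pump Atp2b1 was lower in mLN than in spleen, at -0.79 ± 0.17. Kcnn4 averaged 53.2 CPM in PP and 100.5 CPM in mLN BCL2 HEL pos cells, at -0.92 ± 0.17.

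Against HEL pos cells, BCL2 HEL pos cells had 1 pathway gene higher and 1 lower in spleen (9.37% of all genes called), 1 and 2 in mLN (11.7%) and 0 and 3 in PP (10.1%). Ms4a1 stood at -1.06 ± 0.13 in spleen, where the NFAT kinase gene Dyrk1a was higher by 0.67 ± 0.18. Tmem66 was lower in mLN, at -1.06 ± 0.19, and in PP, at -0.67 ± 0.19, and Atp2a2 was lower in both, at -0.80 ± 0.20 and -0.65 ± 0.20. The calcineurin regulatory subunit Ppp3r1 was higher in mLN by 0.48 ± 0.14, and Itpr1 lower in PP, at -0.51 ± 0.16. In PP none of the 3 was called without HEL pos libraries 399 and Pool, with Tmem66 at -0.85 (adjusted p = 0.0738 in edgeR), Itpr1 at -0.46 (adjusted p = 0.289 in edgeR) and Atp2a2 at -0.18 (adjusted p = 0.774 in edgeR). Of the interactions 1 was called, Ms4a1 for mLN over spleen, at 0.94 ± 0.18 (adjusted p = 0.0236 in edgeR). In that contrast 2 of the 6 B cell markers, Ms4a1 among them, were called higher. By edgeR 0 pathway genes were called for PP over spleen and for PP over mLN, with 11 and 3 genes at an unadjusted p under 0.05. Against the HEL neg pools, BCL2 HEL pos cells had 2 pathway genes higher and 4 lower (14.7% of all genes called), among them the calmodulin gene Calm3 at -0.44 ± 0.11 and Tmem110 (now Stimate), a promoter of STIM1 activity, at -0.75 ± 0.23. HEL pos cells had 1 higher, Orai2 at 0.47 ± 0.13, and 1 lower, the phospholipase Plcg1 at -0.59 ± 0.18 (8.68% of all genes called).

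The genes whose levels were most like those of each member over the 21 libraries were taken by Pearson's r of log2 CPM among 8544 genes (8545 for Rcan1), as a description, since the libraries share tissue, cell kind and pooling. Stim1 was most like Vars, at 0.88, and Nfatc2 most like Tmem8, at 0.87. Nfatc3 was most like Jmjd1c, also at 0.87, and Nfatc1 most like Ubtf, at 0.83. Nfat5 was most like Herc1, at 0.79, followed by Smg1, at 0.77. Stim2 had Suds3 at 0.87, Itpr2 had Camta2 at 0.86, Rcan1 had C330006K01Rik at 0.86, Ppp3ca had Samd9l at 0.82 and Orai1 had Rnf126 at 0.79. Among the 10 genes themselves the highest value was 0.70, between Nfatc2 and Nfatc3, and the lowest -0.44, between Orai1 and Itpr2. None of the 10 genes was the nearest gene of another. Rcan1 could not be, since its average level was too low for it to be ranked.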

How the data were processed

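The authors deposited whole-number counts of each gene in 21 libraries, sequenced as single-end 50-bp reads, per the labels' protocols, in which both TruSeq and Nextera XT kits appear. The submitters' processing notes list STAR, HTSeq, DESeq2 and mm10, with roles and settings not given in the sources used here. Columns were matched to libraries by name, and symbols kept as deposited.

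The quasi-likelihood test of edgeR 4.0.16 (R 4.3.3) was run two-sided on TMM-scaled counts filtered with filterByExpr, with Benjamini-Hochberg adjustment and a call under 0.05. The comparisons of BCL2 HEL pos and HEL pos cells came from 1 fit of 18 libraries (11419 genes, 12 residual degrees of freedom). Those against HEL neg pools came from fits of 12 libraries with tissue as a covariate and a filter by cell kind (10987 genes for BCL2 HEL pos, 11406 for HEL pos). The tests were tried on simulated counts. Single-gene levels use TMM-scaled totals, and summed marker transcripts plain totals. The floor, 3 counts in a library, lay between 0.263 and 0.518 CPM and covers counting error only. Gene positions and exon lengths are from GENCODE M21 on mm10, promoter windows from RefSeq on GRCm38.p6.

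The genes, lists, comparisons and alternatives were chosen with earlier results of these data known. The rule for naming covers all 10 genes in every comparison, of which the values printed are those called or described. Of the pathway list it covers at most the 4 called genes with the smallest p per comparison. Besides these, Plcg2 and the receptors Itpr1 and Itpr3 in the count by role were named after their values were seen. So was Atp2a2 for mLN over spleen in HEL pos cells. For likeness the nearest 3 genes whose average log2 CPM was 3 or more were ranked and the nearest printed, with the next for Nfat5. Alternatives were DESeq2 1.42.0, edgeR with the size factors of DESeq2, no filter on low counts, only the groups compared, the library number as a block, each library left out in turn, no HEL pos pools, and no PP HEL pos libraries 399 and Pool. The interaction of PP over mLN, and the pathway genes without PP HEL pos libraries 399 and Pool, were added after the data were seen.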

Additional observations from a re-analysis of the deposited data

How the results depend on the processing

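No called difference of the 10 genes turned its direction under any alternative run. The number of the 10 genes called moved by over 1.5 times as follows. For BCL2 HEL pos over HEL pos cells in PP (1 called) it was 2 in DESeq2, 2 with no low-count filter, 0 in a fit of only the groups compared, 0 without the HEL pos pools and 0 without PP HEL pos libraries 399 and Pool. For HEL pos over HEL neg cells (1) it was 2 in DESeq2, 3 without the HEL pos pools and 2 without PP HEL pos libraries 399 and Pool. For PP over spleen HEL pos cells (3) it was 0 in a fit of only the groups compared and 0 without PP libraries 399 and Pool, and for PP over mLN HEL pos cells (3) it was 1 without them. The PP over mLN interaction (0) had 1 call in DESeq2 and 1 with no low-count filter. With each library left out in turn the counts ran from 1 to 2 for BCL2 HEL pos over HEL neg cells and from 0 to 2 for HEL pos over HEL neg cells. For BCL2 HEL pos over HEL pos cells they ran from 1 to 3 in mLN, from 0 to 2 in PP and from 0 to 1 in spleen. For HEL pos cells they ran from 2 to 5 for mLN over spleen, from 2 to 4 for PP over mLN and from 0 to 3 for PP over spleen. For mLN over spleen in BCL2 HEL pos cells they ran from 0 to 1, for PP over spleen and PP over mLN there they were 0, and for the interactions they ran from 0 to 0 for PP over spleen and mLN over spleen and from 0 to 1 for PP over mLN. Without PP HEL pos libraries 399 and Pool the pathway genes called, of 42 tested, numbered 3 higher and 2 lower for PP over spleen HEL pos cells (4 and 4 with them), 2 higher and 0 lower for PP over mLN (2 and 3), and 0 for BCL2 HEL pos over HEL pos cells in PP (0 and 3). Smaller fits have fewer libraries, and beyond that the cause was not tested. Of 1930 recomputed fold changes, 111 uncalled ones changed sign. Of 90 group levels 6 moved by more than their spread with plain totals.

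Over all alternatives the number of all genes called stayed within 1.5 times for mLN over spleen HEL pos cells (2794, range 2023 to 3448). The other ranges were wider: 640 to 2385 for PP over spleen HEL pos cells (1756 in the fit reported), 209 to 1634 for PP over mLN (1012), and in BCL2 HEL pos cells 473 to 1388 (838), 561 to 1946 (1142) and 25 to 480 (132) for PP over spleen, mLN over spleen and PP over mLN. For BCL2 HEL pos over HEL pos cells they were 255 to 1638 in PP (1150), 654 to 2105 in mLN (1334) and 569 to 1480 in spleen (1070). Against HEL neg pools they were 1001 to 2391 for BCL2 HEL pos (1611) and 176 to 1574 for HEL pos cells (990). For the interactions they were 0 to 114 (1), 2 to 192 (44) and 0 to 111 (1) for PP over spleen, mLN over spleen and PP over mLN.

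The library number as a block left the count of the 10 genes at 3 for PP over spleen HEL pos cells, raised it to 5 for mLN over spleen and to 4 for PP over mLN, both by adding Itpr2 (-0.47 and 0.44), and left it at 0, 1 and 0 in BCL2 HEL pos cells and at 0 for the interactions. Same-numbered libraries deviated together at r = 0.0204 to 0.307 in HEL pos and 0.0533 to 0.197 in BCL2 HEL pos cells, with 7 of 9 and 6 of 9 pairs over 0.1, and correlated best with their own number in 7 of 9 and 9 of 9 cases. The median r was 0.112 for same-numbered and -0.0991 for differently numbered HEL pos pairs, and 0.101 and -0.0721 for BCL2 HEL pos pairs. Of 18 differently numbered pairs in each cell kind, 1 and 0 were over 0.1. Same-numbered libraries were thus more alike. The labels do not say that they share a mouse, and the fit reported did not pair them.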
